A study of Mus musculus with 19 samples.

Results

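The genes described here are 10 members of the NF-kB pathway: the transcription factor subunits NFKB1, NFKB2, RELA and RELB, the IkB proteins NFKBIA and NFKBIZ, and the feedback regulators or induced genes TNFAIP3, TNFAIP2, BIRC2 and BIRC3. They were chosen with earlier results of these data known and were found by symbol in a table of 31276 human gene symbols, and all 10 were among the 16704 genes with enough reads to be tested. The table holds bulk RNA sequencing counts of 19 xenograft tumours grown in NCG mice from HCC827, a line of human lung adenocarcinoma cells with an activating EGFR mutation. The 4 groups were 5 control libraries given DMSO, 4 given 6-thio-dG, 5 given Osimertinib and 5 given Osimertinib with 6-thio-dG (the combination). Osimertinib inhibits mutant EGFR, and 6-thio-dG is a modified nucleoside that telomerase can insert at chromosome ends. All tumours share 1 parental line and 1 immunodeficient host strain, which lacks functional T, B and NK cells but keeps myeloid cells. The labels do not give the dose, the duration or the age of the mice.

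NF-kB dimers wait in the cytoplasm, bound by IkB proteins, until an IkB kinase marks the inhibitor for destruction and the dimer enters the nucleus. There it transcribes inflammatory cytokines, survival genes and several of its own inhibitors, so that the response normally shuts itself off. In lung epithelium and lung tumours the pathway is known for cytokine production after infection or injury and for survival signals under stress. Transcript levels of the members read this circuit only at the RNA level, since the entry of the proteins into the nucleus is not measured by RNA sequencing.

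Total counts ran from 17731752 to 35397346 per library, and the lowest count of any member in any library was 191 (RELB in combination 5), so low depth did not limit these genes. Levels are given below as CPM (reads of a gene relative to all reads of its library), scaled between libraries by TMM, and they are not compared between genes because transcript length was not used. All 7 tumour epithelium markers were detected, with summed levels of 12782 to 23700 CPM. The 6 lymphocyte markers together reached at most 1.23 CPM, none passed the filter, and MS4A1 and NKG7 were at 0 in every control library. All of these are human symbols, so they were not read as a measure of host cells. Whether reads of the mouse host were removed is not given. Mitochondrial transcripts took 8.15% ± 0.835 of the counts in control (SD, n = 5), 6.45% ± 1.07 with 6-thio-dG (n = 4), 12.0% ± 3.42 with osimertinib (n = 5) and 18.6% ± 7.54 in the combination (n = 5). The labels do not state that each library came from a separate animal, so p-values measure the spread between these samples, which may be in part technical. In bulk tumour RNA, a change in the share of cells that transcribe a gene and a change in transcripts per cell cannot be told apart.

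With 6-thio-dG alone, transcripts of 8 of the 10 members rose against control, and none fell. The largest fold changes were those of TNFAIP3, which encodes the ubiquitin-editing enzyme A20 (5.34-fold), of TNFAIP2 (4.31-fold) and of BIRC3 (4.30-fold), and the median log2 fold change over the 10 members was 1.45. These sizes rest in part on 1 library, 6-thio-dG 3: without it the folds were 2.88 for BIRC3, 2.68 for TNFAIP3, 2.53 for NFKBIZ and 2.37 for TNFAIP2, and the members' median was 0.88 on the log2 scale. In the same comparison 13.9% of all tested genes were called, and 9.27% were called higher (adjusted p under 0.05, edgeR's quasi-likelihood test with Benjamini-Hochberg adjustment over all tested genes), and the median of all genes was 0.01 on the log2 scale. With osimertinib alone none of the members was called in the fit of all 19 libraries, against 4.16% of all tested genes. With both drugs NFKBIZ was higher than control while NFKB1 and RELB were lower, and these 3 calls among 10 are a smaller share than the 48.7% of all tested genes called there. The 6-thio-dG libraries differed widely among themselves, which is given beside each member and in a paragraph of its own.

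**Figure D1:**
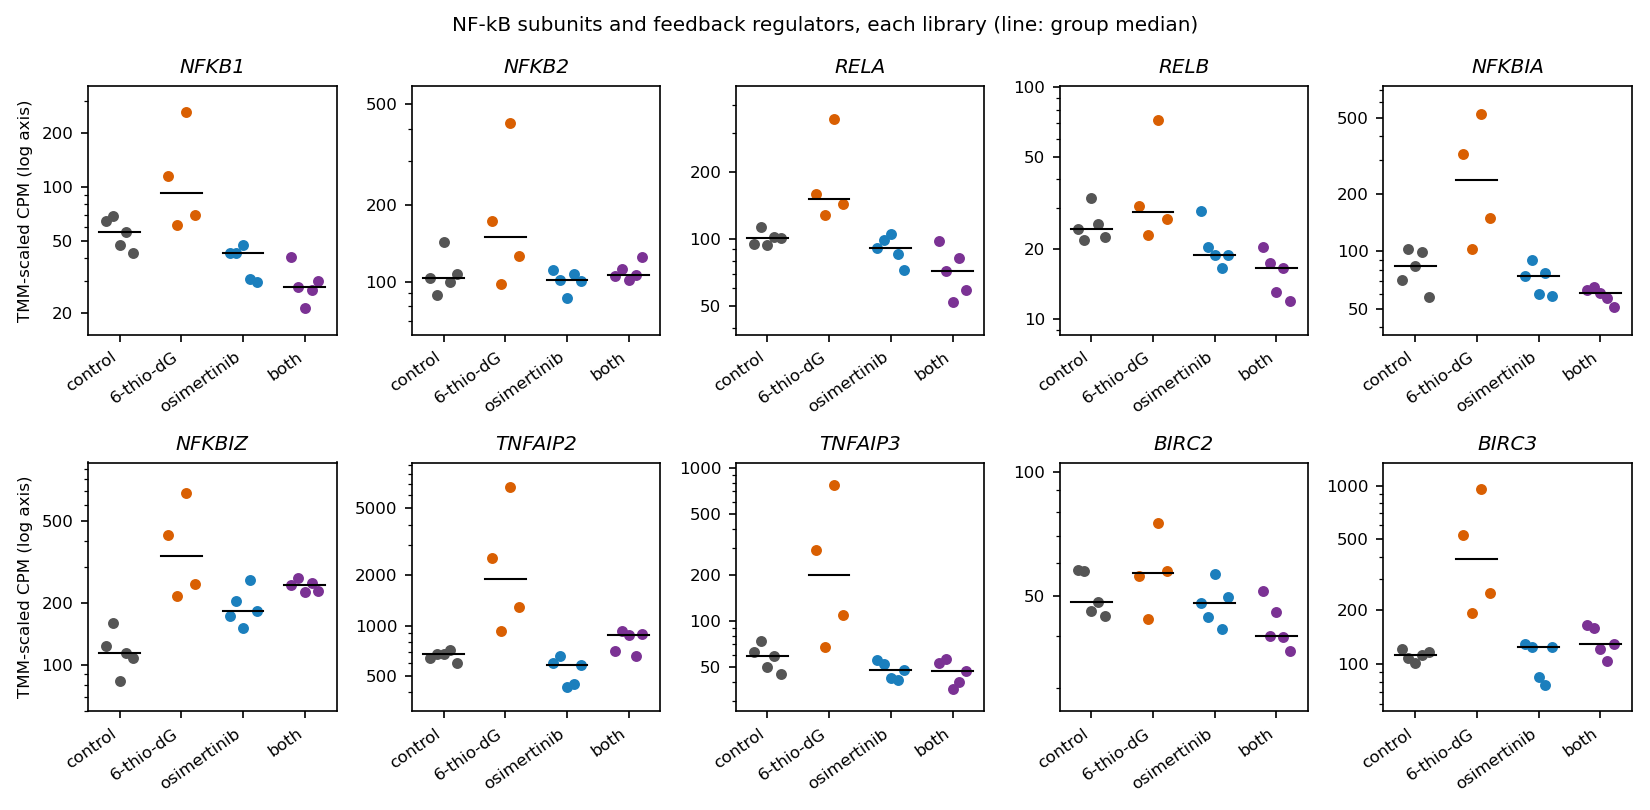
Level of each member in each of the 19 libraries, in TMM-scaled CPM on a log axis; points are libraries, lines are group medians, and "both" is the combination. The orange 6-thio-dG points reach above the other groups for every member, and 1 library, 6-thio-dG 3, is the highest of all 19 in each panel.

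RELA encodes p65, the subunit that carries the main activation domain of the canonical dimer. Its level in control libraries 1 to 5 was 95.2, 113, 94.1, 103 and 101 CPM, and in 6-thio-dG libraries 1 to 4 it was 160.0, 128, 347 and 144 CPM. Every 6-thio-dG library lay above every control, with library 3 far above the rest. Osimertinib libraries 1 to 5 had 91.5, 99.0, 106, 85.4 and 72.8 CPM, and combination libraries 1 to 5 had 98.5, 71.9, 52.1, 82.1 and 59.2 CPM. Both of these groups overlapped control, although 4 of the 5 combination libraries were below every control. The log2 fold change with 6-thio-dG was 0.94 ± 0.23 (SE, n = 4 and 5, edgeR adjusted p = 0.0112). Without 6-thio-dG 3 it was 0.50 and no longer passed the test (edgeR adjusted p = 0.0894). In the combination it was -0.47 ± 0.22 and was not called (edgeR adjusted p = 0.076), but it passed when 6-thio-dG 2, 6-thio-dG 3 or combination 1 was left out (lowest edgeR adjusted p = 0.00912).

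NFKB1 encodes p105, which is processed to the p50 partner of p65 and, uncleaved, also holds NF-kB subunits in the cytoplasm. Control libraries 1 to 5 had 64.4, 68.5, 47.5, 56.4 and 43.1 CPM, and 6-thio-dG libraries 1 to 4 had 115, 61.7, 259 and 69.6 CPM. Libraries 1, 3 and 4 of the 6-thio-dG group exceeded every control, and library 2 lay within the control range. With osimertinib the 5 values were 42.9, 42.8, 47.8, 30.7 and 29.6 CPM, and in the combination they were 40.5, 27.8, 21.1, 26.6 and 30.0 CPM. All combination libraries were below all controls, and 4 of the 5 osimertinib libraries were too. The group means therefore ran from 126.4 ± 91.6 CPM with 6-thio-dG through 56.0 ± 10.8 in control and 38.8 ± 8.10 with osimertinib to 29.2 ± 7.12 in the combination (SD). Of the neighbours in that order, osimertinib and control (edgeR adjusted p = 0.327) and the combination and osimertinib (0.316) did not differ beyond their spread. The rise with 6-thio-dG was 1.17 ± 0.30 on the log2 scale (SE, edgeR adjusted p = 0.0154), and without 6-thio-dG 3 it was 0.55 (adjusted p = 0.156). In the combination NFKB1 fell by 0.94 against control (SE 0.29, edgeR adjusted p = 0.0122), and this call held when any single library was left out (highest adjusted p = 0.0395).

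NFKB2 encodes p100, the precursor of the p52 subunit of the noncanonical branch. Levels were 103, 88.8, 143, 99.3 and 107 CPM in control and 174, 97.6, 421 and 126.3 CPM with 6-thio-dG. Only libraries 1 and 3 of the 6-thio-dG group were above the highest control. Osimertinib libraries ran from 86.4 to 112 CPM and combination libraries from 101 to 125 CPM, within or close to the control range. The log2 fold change with 6-thio-dG was 0.92 ± 0.27 (SE, edgeR adjusted p = 0.03), a call that was lost without control 1, 2, 4 or 5, and without 6-thio-dG 3 the value was 0.28 (adjusted p = 0.335).

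RELB encodes the usual partner of p52. Control libraries 1 to 5 had 24.5, 21.8, 33.4, 25.8 and 22.5 CPM, and 6-thio-dG libraries 1 to 4 had 30.8, 23.1, 72.2 and 27.1 CPM. Library 3 alone was above the controls, and the comparison was not called (log2 fold change 0.58 ± 0.26, SE, edgeR adjusted p = 0.138). With osimertinib the values were 29.3, 20.4, 18.9, 16.6 and 19.0 CPM, and in the combination they were 20.4, 17.5, 13.1, 16.6 and 12.0 CPM. Every combination library was below every control. RELB fell by 0.68 on the log2 scale in the combination against control (SE 0.25, edgeR adjusted p = 0.0289), a call that was lost without control 3, combination 3 or combination 5 (highest adjusted p = 0.0805).

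NFKBIA encodes IkB alpha, the inhibitor that keeps p65 dimers in the cytoplasm and is resynthesised when NF-kB is active. Control libraries had 70.4, 103, 83.6, 98.9 and 57.9 CPM, and 6-thio-dG libraries had 322, 102, 523 and 149 CPM. Library 2 of the 6-thio-dG group sat at the top of the control range, and the other 3 were above it. Levels were 74.4, 90.0, 60.1, 77.0 and 58.4 CPM with osimertinib and 62.8, 65.3, 60.6, 56.7 and 51.2 CPM in the combination. These last groups overlapped control and each other. NFKBIA rose 3.31-fold with 6-thio-dG (log2 fold change 1.73 ± 0.31, SE, edgeR adjusted p = 0.00183), and without library 3 the log2 value was 1.20 (adjusted p = 0.0117).

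NFKBIZ encodes IkB zeta, a nuclear IkB protein that acts as a cofactor at a subset of inflammatory promoters, and it was the one member called higher than control in the combination. Control libraries 1 to 5 had 124, 159.6, 83.4, 114 and 108 CPM, and 6-thio-dG libraries 1 to 4 had 431, 218, 691 and 248 CPM. With osimertinib the values were 173, 205, 152, 261 and 183 CPM, and in the combination they were 246, 266, 227, 251 and 228 CPM. All libraries of the 6-thio-dG and combination groups were above all controls, as were 4 of the 5 with osimertinib. The combination libraries were also close to each other, with a coefficient of variation of 6.69% against 54.8% with 6-thio-dG alone. The log2 fold change was 1.75 ± 0.25 with 6-thio-dG (SE, edgeR adjusted p = 0.000975) and 1.05 ± 0.24 in the combination (adjusted p = 0.00178). With osimertinib it was 0.72 ± 0.24 and was not called (edgeR adjusted p = 0.0946, unadjusted p = 0.00648), but it passed without 6-thio-dG 3 (adjusted p = 0.029). The combination and osimertinib were not distinguishable for NFKBIZ (0.32 ± 0.24, 95% interval -0.17 to 0.82, edgeR adjusted p = 0.337).

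TNFAIP3 encodes A20, which removes ubiquitin chains from signalling proteins upstream of the IkB kinase and so ends the response. It had 62.8, 73.7, 50.0, 59.0 and 44.9 CPM in control and 291, 67.8, 773 and 109 CPM with 6-thio-dG. The 6-thio-dG group spanned an 11.4-fold range, the widest of any member, with library 2 inside the control range. Osimertinib libraries had 55.6, 52.4, 42.3, 40.7 and 47.9 CPM and combination libraries 53.0, 55.9, 35.8, 39.7 and 47.0 CPM. Both groups overlapped control. The rise with 6-thio-dG was 2.42 ± 0.43 on the log2 scale (SE, edgeR adjusted p = 0.0018), and 1.42 without library 3 (adjusted p = 0.00993).

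TNFAIP2 is a gene first found as induced by TNF, whose product takes part in membrane protrusion. Control libraries had 645, 677, 677, 715 and 601 CPM, and 6-thio-dG libraries had 2513, 926, 6689.8 and 1293 CPM. All 4 were above all controls, which differed among themselves by a factor of only 1.19. Osimertinib libraries had 601, 659, 432, 452 and 586 CPM, and combination libraries had 707, 929.9, 875, 656 and 891 CPM. With osimertinib 3 of the 5 libraries were below every control, and in the combination 3 of the 5 were above every control, so both groups overlapped it. TNFAIP2 rose by 2.11 ± 0.36 on the log2 scale with 6-thio-dG (SE, edgeR adjusted p = 0.00152), and by 1.24 without library 3 (adjusted p = 0.00522). The combination against osimertinib gave 0.57 ± 0.34, which was not called (edgeR adjusted p = 0.227) unless only those groups entered the fit (adjusted p = 0.0352).

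BIRC3 and BIRC2 encode the paralogous ubiquitin ligases cIAP2 and cIAP1, which modify RIPK1 below the TNF receptor and keep the noncanonical kinase NIK low. How reads that match both genes were counted is not stated in the labels. BIRC3 had 122, 109, 101, 113 and 117 CPM in control and 529, 194, 962 and 251 CPM with 6-thio-dG. The 4 libraries given 6-thio-dG were all above the narrow control range. BIRC3 was 129, 125, 85.0, 76.4 and 125 CPM with osimertinib and 167, 160.5, 121, 104 and 130.0 CPM in the combination, both overlapping control. Its log2 fold change with 6-thio-dG was 2.11 ± 0.31 (SE, edgeR adjusted p = 0.000975), and 1.52 without library 3 (adjusted p = 0.00379).

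BIRC2 had the narrowest range of the 10 members over the 19 libraries. It had 57.7, 57.4, 45.9, 48.3 and 44.9 CPM in control, 56.1, 44.1, 75.1 and 57.4 CPM with 6-thio-dG, 48.1, 44.6, 56.6, 41.6 and 49.9 CPM with osimertinib, and 51.4, 40.0, 45.8, 39.9 and 36.9 CPM in the combination. All groups overlapped control, and the highest of the 19 libraries was 2.04 times the lowest. With 6-thio-dG the log2 fold change was 0.19 ± 0.14 (SE, 95% interval -0.10 to 0.49, edgeR adjusted p = 0.379).

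Since BIRC3 and BIRC2 are measured in the same library, their ratio does not depend on how libraries are scaled. The BIRC3 count was 1.89 to 2.61 times the BIRC2 count in control libraries. It was 9.42, 4.38, 12.8 and 4.37 times in 6-thio-dG libraries 1 to 4, 1.50 to 2.81 times with osimertinib and 2.60 to 4.00 times in the combination. The 6-thio-dG libraries were all above every control and every combination library, whereas the combination range began just inside the control range. On the log2 scale the mean ratio was 1.15 ± 0.171 in control (SD, n = 5), 2.79 ± 0.787 with 6-thio-dG (n = 4), 1.14 ± 0.393 with osimertinib (n = 5) and 1.66 ± 0.268 in the combination (n = 5). In exact 2-sided permutation tests, with p-values adjusted over the 5 pairwise comparisons, 6-thio-dG exceeded control by 1.64 (adjusted p = 0.0198) and the combination exceeded control by 0.51 (adjusted p = 0.0265). The combination was lower than 6-thio-dG alone by -1.14 (exact permutation test, adjusted p = 0.0198), and it differed from osimertinib by 0.52 without passing the threshold (exact permutation test, adjusted p = 0.0694). The unadjusted p was 0.00794 for both comparisons with 6-thio-dG alone, which is the smallest these group sizes allow. Without control 1, 2, 3 or 4 the adjusted p of both comparisons with control rose to 0.0661 (exact permutation tests). In those 4 runs every 6-thio-dG library was still above every control and the difference was 1.59 to 1.66, and the unadjusted p of 0.0286 was the smallest that 4 libraries against 4 allow in this exact permutation test, so the loss of that call does not measure how stable the difference is. The combination exceeded control by 0.45 to 0.53 there, with groups that overlapped and an unadjusted p of 0.0397 (exact permutation test), where 0.00794 was the smallest possible. The combination against osimertinib passed when osimertinib 2 was left out (exact permutation test, adjusted p = 0.0496).

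**Figure D2:**
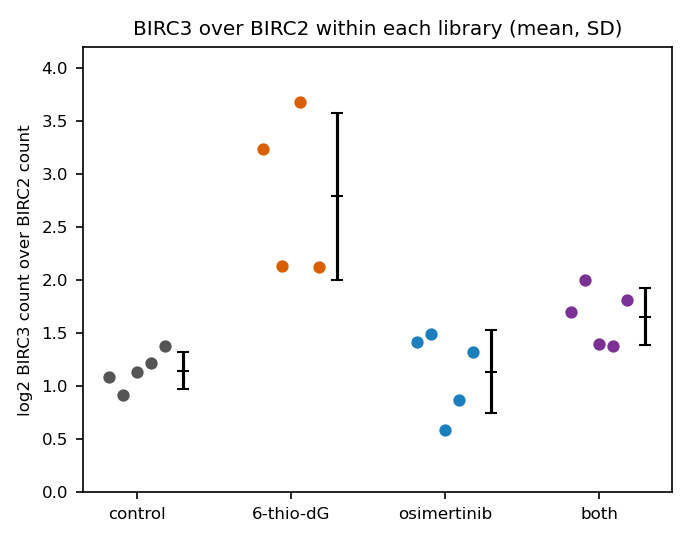
Log2 of the BIRC3 count over the BIRC2 count in each library (points), with the mean and SD of each group beside them. The 6-thio-dG libraries lie between 2.13 and 3.68, above all control libraries, which lie between 0.92 and 1.38.

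Of the 8 members called with 6-thio-dG, 4 had no overlap between the groups (RELA, NFKBIZ, TNFAIP2 and BIRC3), where 7.21% of all tested genes were higher without overlap. The order of the 6-thio-dG libraries was nearly the same from member to member. Library 3 was the highest and library 2 the lowest for 10 of 10 members, against 17.9% of all tested genes. The full order of library 3, then 1, then 4, then 2 held for 9 of the 10, with BIRC2 the exception, against 10.5% of all tested genes. This order was picked after the values were seen, and the members are read in the same 4 libraries, so they are not independent of each other in it. The highest 6-thio-dG library exceeded the lowest by a factor of 1.70 for BIRC2 to 11.4 for TNFAIP3, while the median factor over 11576 genes with a mean log2 CPM of at least 2 was 1.37. The mitochondrial share ran in the opposite order, at 5.27% in library 3, 6.21% in library 1, 6.46% in library 4 and 7.86% in library 2, and its part in the order was not tested.

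**Figure D3:**
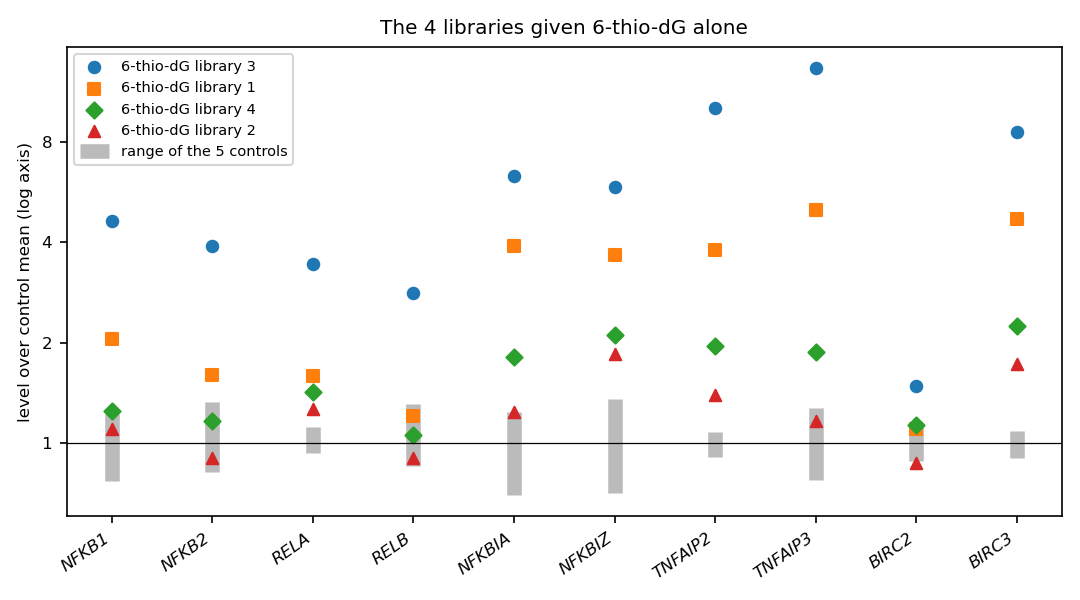
Level of each member in the 4 libraries given 6-thio-dG, divided by the mean of the 5 controls, on a log axis; grey bars span the control libraries. For TNFAIP3, library 3 stands 13.3-fold and library 2 stands 1.17-fold above the control mean.

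Leaving out 6-thio-dG 3 reduced the calls against control from 8 to 5, namely NFKBIA, NFKBIZ, TNFAIP2, TNFAIP3 and BIRC3, and the 3 calls lost were those of the subunits NFKB1, NFKB2 and RELA. Over all genes the calls fell from 2322 of 16704 to 736 of 17029, or 4.32%, with 3.07% called higher. The fit also gave 5 calls when only the control and 6-thio-dG libraries entered it. NFKB1 (edgeR adjusted p = 0.0804), NFKB2 (0.137) and RELA (0.0598) were again the calls lost. Markers of other cell types were read in the same libraries. They are human symbols counted on a human build, while cells of the host are mouse. Whether mouse reads were removed is not given, so these sums were not read as a measure of host cell content. How far reads of host cells enter them was not tested. The 8 myeloid markers summed to 10.4 to 15.4 CPM with 6-thio-dG and 8.18 to 21.9 CPM in control, and none of the 6 tested was called. The 9 fibroblast markers summed to 241 to 376 CPM with 6-thio-dG and 386 to 901 CPM in control, with 3 of the 8 tested called lower and 1 higher. Endothelial markers summed to 5.29 to 10.7 CPM with 6-thio-dG and 6.44 to 8.11 CPM in control, with 1 of 5 tested called higher. Skeletal muscle markers summed to 49.2 to 112 CPM and 24.9 to 863 CPM in those groups, with 1 of 9 called lower. The part of these cells in the members' levels was not tested.

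In the fit of all 19 libraries, osimertinib alone gave no call among the 10 members by edgeR or by DESeq2. There 4.16% of all tested genes were called by edgeR. At an unadjusted p under 0.05 edgeR gave 1, NFKBIZ. The members' median log2 fold change was -0.18, and 9 of the 10 values were below 0. Intervals remained wide: for TNFAIP3 the 95% interval of the log2 fold change was -1.11 to 0.55, and for BIRC2 it was -0.36 to 0.20.

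To ask whether 6-thio-dG had the same effect when osimertinib was present, its effect without osimertinib (6-thio-dG minus control) was set beside its effect with it (combination minus osimertinib). These effects share no libraries. The first gave 8 calls and a median of 1.45, while the second gave 0 calls by edgeR and by DESeq2, 0 at an unadjusted edgeR p under 0.05, and a median of -0.11, where 15.8% of all tested genes were called. With only the libraries of each comparison in the fit, the first gave 5 calls and the second gave 1. That 1 was TNFAIP2, higher by 0.59 (edgeR adjusted p = 0.0352). The difference between the effects, tested as the interaction, was below 0 for all 10 members. It was called for 6 (edgeR), against 3.45% of all tested genes called and 2.21% called lower. DESeq2 called the same 6 members but more of the other genes, 1800 of 15509 in all. The called members were NFKBIA with -2.01 ± 0.42 on the log2 scale (SE, edgeR adjusted p = 0.0287), TNFAIP3 with -2.46 ± 0.58 (0.0338), BIRC3 with -1.77 ± 0.43 (0.0364), NFKBIZ with -1.43 ± 0.35 (0.0368), RELA with -1.26 ± 0.32 (0.0402) and NFKB1 with -1.58 ± 0.42 (0.0452). TNFAIP2 had -1.53 ± 0.49 and just missed the threshold (edgeR adjusted p = 0.0691), and RELB, NFKB2 and BIRC2 had -0.96, -0.80 and -0.36 without a call.

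The interaction calls stood close to the threshold. No member was called when control 3, control 5, 6-thio-dG 1, 6-thio-dG 3, osimertinib 1, osimertinib 2, combination 3, combination 4 or combination 5 was left out, and 1 was called without control 4 or combination 2. Without 6-thio-dG 3 the log2 values were smaller, for instance -1.48 for NFKBIA and -1.47 for TNFAIP3. None of the interaction values changed sign in any fit that left out 1 library. The mitochondrial share was highest in the combination, and with that share as a covariate the values stayed below 0 (NFKBIA -1.80, TNFAIP3 -2.23) and none was called.

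**Figure D4:**
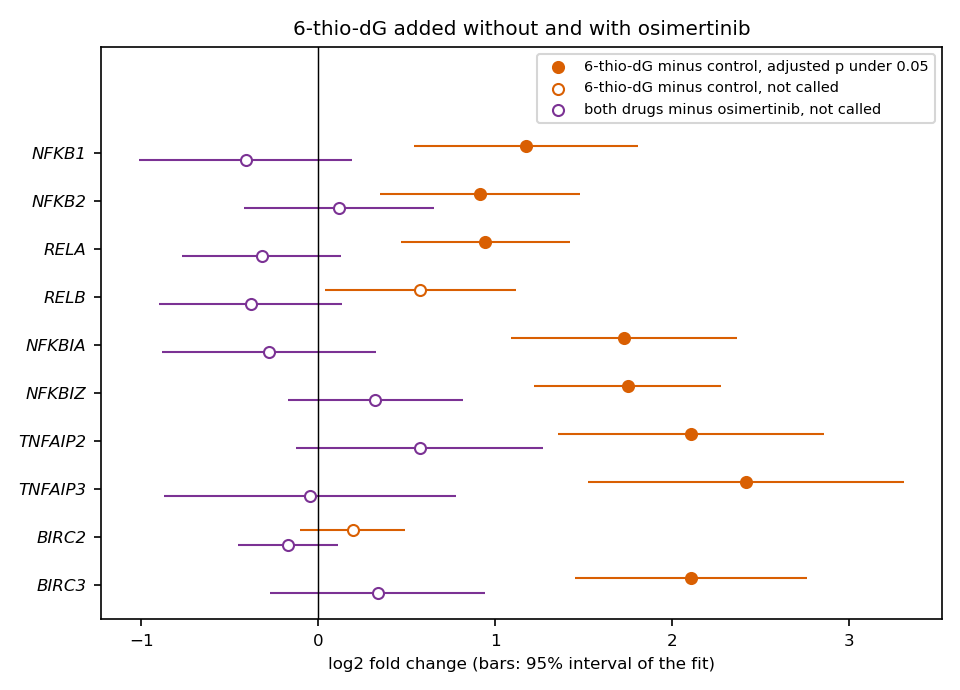
Log2 fold change of each member for 6-thio-dG against control (orange) and for the combination against osimertinib (purple); bars are 95% intervals of the edgeR fit, and filled points passed an adjusted p of 0.05. All 10 orange points lie to the right of the purple ones, and no purple point is filled.

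Against control, the combination gave 3 calls among the members, NFKBIZ higher and NFKB1 and RELB lower, and these were also the 3 without overlap between the groups. In that comparison 48.7% of all tested genes were called, 25.7% higher and 23.1% lower, so a share of 3 in 10 was not above the background. Without overlap, 14.5% of all tested genes were higher and 12.3% lower. The other 7 members had log2 fold changes from -0.48 (NFKBIA) to 0.29 (TNFAIP2). With the mitochondrial share as a covariate none of the 3 passed, although NFKBIZ had 1.10 (edgeR adjusted p = 0.0719), NFKB1 -0.53 (0.502) and RELB -0.20 (0.795). When only control and combination libraries entered the fit, RELA (-0.46, edgeR adjusted p = 0.0287) and NFKBIA (-0.46, 0.0262) were also called lower.

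Against 6-thio-dG alone, the combination was lower for 10 of 10 members, where 44.2% of all tested genes were called and 22.9% were called lower, and 6 members did not overlap between these groups, against 16.8% of all tested genes. This comparison uses the 6-thio-dG libraries already compared with control, so the same high libraries stand behind both. The differences ran from -2.74 ± 0.43 for TNFAIP3 (SE, edgeR adjusted p = 0.000121), -2.21 ± 0.31 for NFKBIA (5.87e-05) and -2.11 ± 0.31 for NFKB1 (7.49e-05) to -0.44 ± 0.14 for BIRC2 (0.0169). Without 6-thio-dG 3, calls numbered 7, and those of NFKB2 (-0.29, edgeR adjusted p = 0.162), NFKBIZ (-0.31, 0.232) and BIRC2 (-0.31, 0.0777) were lost. The NFKBIZ call was also lost without 6-thio-dG 1, combination 3 or combination 5. With the mitochondrial share as a covariate none of the 10 passed, with values from -2.42 for TNFAIP3 to -0.16 for BIRC2.

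Around the members, 74 further pathway genes in 6 lists were read the same way, of which 69 were tested. With 6-thio-dG alone 31 of the 69 were higher and none lower, where 9.27% of all tested genes were called higher, and the median log2 fold change over those tested was 0.46. Without 6-thio-dG 3, 17 were called, where 3.07% of all tested genes were called higher. The list of known NF-kB target genes gave the largest share, 15 of 19 higher with a median of 1.92. Of the 15, 10 were called without 6-thio-dG 3. Whether NF-kB drove these genes here was not tested. PTGS2, the inducible cyclooxygenase, had a group mean of 516 ± 631 CPM with 6-thio-dG against 16.6 ± 12.4 in control (SD), a log2 fold change of 4.96 ± 0.78 (SE, edgeR adjusted p = 0.00102). TNFAIP6, which encodes a hyaluronan-binding protein, had 24.2 ± 39.8 CPM against 0.220 ± 0.142 (6.80 ± 1.07, edgeR adjusted p = 0.00103), and the chemokine CXCL1 had 1338 ± 1274 CPM against 161 ± 60.5 (3.06 ± 0.50, edgeR adjusted p = 0.00115). These 3 calls held without any single library, but their size rested in part on 6-thio-dG 3. TNFAIP6 had 8.07, 0.649, 83.7 and 4.28 CPM in 6-thio-dG libraries 1 to 4, and without library 3 the log2 fold changes were 4.31 for TNFAIP6, 3.71 for PTGS2 and 2.23 for CXCL1.

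Upstream, 3 of 7 tested ligand genes were higher with 6-thio-dG. IL1B had a log2 fold change of 2.68 ± 0.48 and IL1A, its relative in the interleukin 1 family, 3.39 ± 0.61 (SE, edgeR adjusted p = 0.00199 for each), and without 6-thio-dG 3 these were 1.79 and 2.44. TNF had 3.19 ± 0.75 (edgeR adjusted p = 0.0091) from a control mean of only 0.391 CPM, and its call was lost without 6-thio-dG 3 (adjusted p = 0.0958). Of 13 receptors and adaptors, TNFRSF1B, the second TNF receptor, was higher by 5.36 ± 0.67 (edgeR adjusted p = 0.000659) and by 3.99 without 6-thio-dG 3. It had 19.5, 4.94, 78.4 and 7.45 CPM in 6-thio-dG libraries 1 to 4, so a change of this size starts from a low control level. The interleukin 1 receptor kinase IRAK2 was higher by 1.64 ± 0.36 (edgeR adjusted p = 0.00622), a call lost without 6-thio-dG 3 (adjusted p = 0.055).

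Among 11 kinases and activators 4 were higher, all modestly. TAB3, an adaptor of the kinase TAK1, had 0.69 ± 0.18 (edgeR adjusted p = 0.0169) and was lost without 6-thio-dG 3. The IkB kinase relatives IKBKE (0.81 ± 0.23, edgeR adjusted p = 0.0239) and TBK1 (0.53 ± 0.15, 0.0263) were both lost without control 3, 6-thio-dG 1 or 6-thio-dG 3, IKBKE also without control 5 and TBK1 also without control 4. CHUK, IKBKB and IKBKG, which encode the IkB kinase complex itself, were not called. Of 5 further subunits and IkB proteins, REL was higher by 1.91 ± 0.35 (edgeR adjusted p = 0.00225) and NFKBIE by 1.14 ± 0.27 (0.00949), the latter lost without 6-thio-dG 3. Of 14 ubiquitin enzymes and other brakes 5 were higher. ZC3H12A, an RNase that degrades cytokine messages, had 1.94 ± 0.28 (edgeR adjusted p = 0.000975), and the A20-binding proteins TNIP3 and TNIP1 had 3.89 ± 0.57 (0.000975) and 1.60 ± 0.33 (0.00416), and all 3 calls held without any single library. Without 6-thio-dG 3 the TNIP1 value was 0.98.

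**Figure D5:**
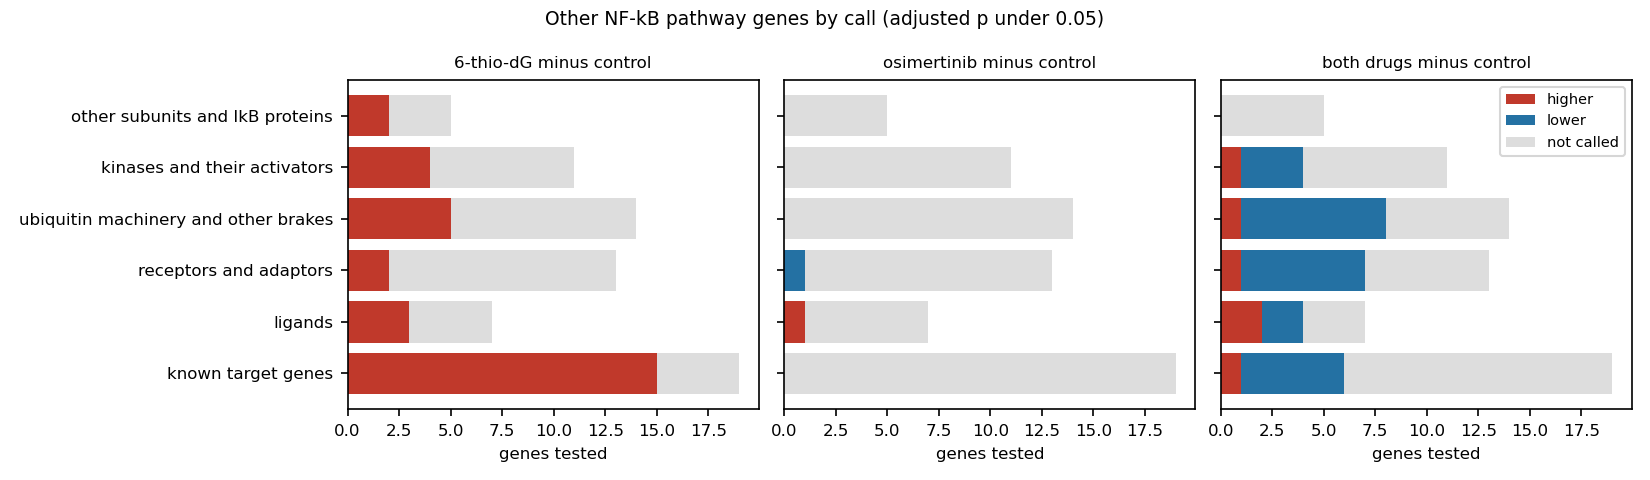
Number of tested pathway genes in each list that were called higher (red), called lower (blue) or not called (grey) against control, by edgeR at an adjusted p of 0.05. With 6-thio-dG 31 of 69 genes are higher and none lower, with osimertinib 1 is higher and 1 lower, and with both drugs 6 are higher and 23 lower.

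With osimertinib alone 2 of the 69 pathway genes were called (2.90%, where 4.16% of all tested genes were): the TNF family ligand TNFSF15 was higher (0.70 ± 0.13, SE, edgeR adjusted p = 0.00612) and the interleukin 1 co-receptor IL1RAP was lower (-0.92 ± 0.23, 0.0305). Fits that left out control 2 or 4, or osimertinib 1, 4 or 5, ended the IL1RAP call, as did the mitochondrial share as a covariate (edgeR adjusted p = 0.0829). In the combination against control 6 were higher and 23 lower (42.0%), where 48.7% of all tested genes were called. With the mitochondrial share as a covariate 28 of these 29 calls were lost, those of every gene named below among them except TNFSF15, and without combination 3, combination 5 and 6-thio-dG 3 together 11 were lost. Here the IkB kinase subunit genes moved apart: CHUK was lower (-0.72 ± 0.15, edgeR adjusted p = 0.00086), IKBKG was lower (-0.73 ± 0.20, 0.0065) and IKBKB was higher (0.51 ± 0.13, 0.00371). All 3 calls held without any single library, with adjusted p from 0.203 to 0.886 under that covariate, and the IKBKG call was among those lost without the 3 libraries (0.052). Further genes that were lower included the linear-ubiquitin protease OTULIN (-0.86 ± 0.16, edgeR adjusted p = 0.000469), TNIP2 (-0.86 ± 0.18, 0.00101) and TNIP1 (-1.10 ± 0.31, 0.0067). So were the interleukin 1 receptor IL1R1 (-1.18 ± 0.21, edgeR adjusted p = 0.000283) and the death-domain adaptor FADD (-1.03 ± 0.21, 0.000838), while the kinase IRAK4 was higher (0.90 ± 0.17, 0.000512). For these 6 genes the adjusted p under the covariate ran from 0.0846 for IL1R1 to 0.571 for TNIP1.

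Ligands and known target genes were mixed in the combination against control. TNFSF15 was higher (0.87 ± 0.13, SE, edgeR adjusted p = 7.89e-05, and 0.0221 with the mitochondrial covariate), as was TNFSF13B, which encodes a B-cell survival ligand (1.42 ± 0.45, 0.014), and IL1B was lower (-1.51 ± 0.46, 0.0112). CFLAR, an inhibitor of caspase 8, was higher (0.58 ± 0.17, edgeR adjusted p = 0.00805), and the adhesion molecule ICAM1 was lower (-1.04 ± 0.32, 0.011). VCAM1, a second adhesion molecule, was lower by a log2 fold change of -3.24 ± 0.97 (edgeR adjusted p = 0.00991), a call that was lost without control 3 (adjusted p = 0.0611). Under the covariate the adjusted p of TNFSF13B, IL1B, CFLAR, ICAM1 and VCAM1 ran from 0.407 to 0.507, and without the 3 libraries the calls of TNFSF13B (0.0799) and VCAM1 (0.0714) were lost.

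The combination against osimertinib called 2 of the 69 higher and 6 lower (11.6%), a smaller share than the 15.8% of all tested genes. Among them were CHUK (-0.68 ± 0.15, SE, edgeR adjusted p = 0.0115), OTULIN (-0.75 ± 0.16, 0.0113) and IKBKB (0.51 ± 0.13, 0.018). The IKBKB call was lost without osimertinib 3 or combination 5, and all 8 were lost with the mitochondrial covariate. Calls in this comparison numbered 5 without osimertinib 1 or 2, 3 without osimertinib 3 or combination 3, 2 without combination 5 and 13 without combination 1. Against 6-thio-dG alone 5 were higher and 44 lower (71.0%, where 44.2% of all tested genes were called), and 9 of these 49 calls held with the mitochondrial covariate. They were led by TNIP3 (-5.56 ± 0.64, edgeR adjusted p = 1.79e-05), CXCL1 (-4.47 ± 0.53, 2.14e-05) and IL1B (-4.18 ± 0.51, 3.02e-05), which are among the 9. The interaction was called for 20 of 69 (29.0%, where 3.45% of all tested genes were called), all lower and all lost with the mitochondrial covariate, among them TNFRSF1B (-5.41 ± 0.87), IL1B (-3.44 ± 0.66) and CXCL1 (-3.36 ± 0.67), each with an edgeR adjusted p of 0.0265. As for the members, no pathway gene passed in the interaction without control 3, 6-thio-dG 1, osimertinib 2, combination 3 or combination 5. The count was 1 without 6-thio-dG 3, where 0.0176% of all tested genes were called, 4 without combination 4, 6 without control 5 or osimertinib 1, 8 without combination 2, 11 without control 4 and 31 without combination 1.

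The genes whose levels followed a member most closely over the 19 libraries were sought among 11575 others with a mean log2 CPM of at least 2, by the root mean square difference of profiles standardised over libraries, where 0 is an identical profile. For NFKBIA the nearest were the sodium pump subunit ATP1B1 (0.203), the NOD receptor kinase RIPK2 (0.214), the Hippo pathway scaffold SAV1 (0.242), the chemokine CXCL3 (0.243) and the lysosomal protein DRAM2 (0.258), and the median over all genes was 1.33. BIRC3 was most closely followed by TNFAIP2 (0.246), the muscle atrophy ubiquitin ligase FBXO32 (0.275), the red-cell enzyme BPGM (0.302), TNFAIP3 (0.313) and the lipid droplet protein HILPDA (0.316), with a median over all genes of 1.36. These profiles share libraries and depth, and the wide 6-thio-dG group weighs heavily in each. ATP1B1, for example, had 818 ± 540.3 CPM with 6-thio-dG against 250.0 ± 82.8 in control, 196 ± 31.6 with osimertinib and 168 ± 29.8 in the combination (SD).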

How the data were processed

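RNA was selected by poly-A and read without strand, per the labels' protocols, so overlapping genes on opposite strands share reads. The submitters' processing notes name FastQC, Trimmomatic, STAR and the human build hg38. Not given in the sources used here are versions, the counter, its annotation and whether reads of the mouse host were removed. The deposited table, 1 file, gives each gene symbol's raw count in each library, and the authors applied no normalization to it. The organism label is mouse, but the symbols are human and were read as such.

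Testing used edgeR 4.0.16 under R 4.3.3. After filterByExpr by group (at least 10 counts, total at least 15), 16704 genes remained. TMM scaled the libraries, and a single quasi-likelihood fit of group means to all 19 gave 5 pairwise contrasts and the interaction, (combination minus osimertinib) minus (6-thio-dG minus control). Every contrast of a gene thus used the same estimate of spread, which the wide 6-thio-dG group enters. Benjamini-Hochberg adjustment ran over all tested genes, with calls under 0.05. Each SE is the log2 fold change divided by the root of its F value. The fit was also run on simulated counts that gave each gene the same dispersion (relative spread) in all groups. The members spread more widely in the real 6-thio-dG group, so that run does not measure how reliable their calls are. The log2 ratio of BIRC3 to BIRC2 counts used a prior count of 2 and exact permutation tests. Alternatives were DESeq2 1.42.0, scaling by RLE or by the upper quartile, testing without a filter, fitting only the groups of a contrast, the mitochondrial share as a covariate, omitting 3 libraries that earlier work on these data found apart, and omitting each library singly. From each pathway list, up to 3 called genes with the smallest p were named per comparison, and others for their role. Of the 74 pathway genes listed, 1 was not analysed here and 4 did not pass the filter.

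The members, lists and tests were chosen with earlier results of these data known. Replicate numbers follow accession order and pair no samples. Python 3.11.15 with matplotlib 3.10.9 drew the figures.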

Additional observations from a re-analysis of the deposited data

Results flagged for a closer look

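Within the 6-thio-dG group, library 3 stood apart from the other 3 libraries for RELA and RELB by Dixon's test of the gap to the nearest library over the group's range. RELA had 347 CPM in that library and 160.0 CPM in the nearest one (gap over range 0.852), and RELB had 72.2 CPM against 30.8 CPM (0.842). In all, 40 groups of values were screened in this way and 2 were picked out, and chance picks out about 1 in 20 groups.

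For 6 members the interaction term of the edgeR fit, the difference in the effect of 6-thio-dG with and without osimertinib, passed the threshold. The log2 interaction was -1.58 for NFKB1 (adjusted p = 0.0452), -1.26 for RELA (0.0402), -2.01 for NFKBIA (0.0287), -1.43 for NFKBIZ (0.0368), -2.46 for TNFAIP3 (0.0338) and -1.77 for BIRC3 (0.0364). Without combination 3, combination 5 and 6-thio-dG 3 together the 6 values ran from -1.42 for NFKBIA to -0.60 for RELA, and none passed (lowest edgeR adjusted p = 0.209). Leaving out single libraries ended the NFKBIA call in 9 fits and the NFKB1 and RELA calls in 13 each, with the other members between. With the mitochondrial share as a covariate none passed (lowest edgeR adjusted p = 0.226).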

How the results depend on the processing

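Of 410 member results under alternatives other than the omission of single libraries, 356 kept their direction and side of the threshold, 38 lost a call, 7 gained one and 9 changed sign. The 9 were log2 values near 0 that no fit called: TNFAIP3 in combination minus osimertinib (0.0249 with upper-quartile scaling, 0.125 with the mitochondrial covariate, 0.0571 without the 3 libraries), NFKB2 in combination minus control (-0.0341 without a filter, -0.000323 with the covariate, -0.0192 without the 3 libraries), and RELA (0.0133), BIRC2 (0.00914) and BIRC3 (0.0233) in osimertinib minus control with the covariate. Leaving out single libraries moved NFKB2 from -0.162 to 0.0232 and BIRC3 from -0.127 to 0.0473 with osimertinib, NFKB2 from -0.0443 to 0.141 in combination minus control, and TNFAIP3 from -0.119 to 0.0392 in combination minus osimertinib. DESeq2 and RLE scaling changed no member's call. Upper-quartile scaling shifted the median of all genes by 0.11 (combination minus control), 0.18 (combination minus 6-thio-dG) and 0.14 (interaction) on the log2 scale, and ended the combination minus 6-thio-dG calls of NFKBIZ (-0.51, edgeR adjusted p = 0.0904) and BIRC2 (-0.26, 0.0975). It moved the higher share of all calls from 66.7 to 55.6% with 6-thio-dG, from 52.7 to 63.4% in the combination against control, from 51.4 to 64.8% against osimertinib, from 48.1 to 65.5% against 6-thio-dG, and from 35.9 to 57.3% in the interaction. DESeq2 moved the last to 47.3%.

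Counts below are in the order osimertinib, 6-thio-dG and combination against control, combination against osimertinib, combination against 6-thio-dG, and interaction. All genes called numbered 695, 2322, 8139, 2632, 7378 and 576. DESeq2 called 1347 of 20352 genes with osimertinib and 1800 of 15509 in the interaction. With only the groups of a contrast in the fit, members called were 1, 5, 5 and 1 in the first 4, all genes 451 and 790 in the first pair, and pathway genes 4 and 18. With the mitochondrial share as a covariate, members called were 0 in combination minus control, combination minus 6-thio-dG and the interaction, all genes 322, 3516, 542, 3, 191 and 0, and pathway genes 1 with osimertinib, 1 in combination minus control, 0 in combination minus osimertinib, 9 in combination minus 6-thio-dG and 0 in the interaction. The share is higher in the groups given osimertinib, so share and treatment cannot be told apart in full. Without combination 3, combination 5 and 6-thio-dG 3 together, members called were 1 with osimertinib, 6 in combination minus 6-thio-dG and 0 in the interaction, all genes 1154, 910, 4660, 6, 3311 and 0, and pathway genes 4 with osimertinib, 17 with 6-thio-dG, 0 in combination minus osimertinib and 0 in the interaction. There the BIRC3 over BIRC2 differences were 1.35, 0.54 and -0.81 (exact permutation adjusted p = 0.0893, 0.0893 and 0.156) for 6-thio-dG and the combination against control and the combination against 6-thio-dG, where the unadjusted p of both comparisons with 6-thio-dG alone was the smallest these group sizes allow (0.0179 and 0.1).

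Leaving out each library in turn gave member counts of 0 to 1, 5 to 8, 2 to 4, 0 to 0, 7 to 10 and 0 to 7, counts of all genes of 217 to 910, 736 to 2807, 6552 to 8777, 492 to 4693, 6184 to 8082 and 0 to 2157, and counts of pathway genes of 1 to 2, 17 to 34, 20 to 33, 2 to 13, 44 to 51 and 0 to 31. The BIRC3 over BIRC2 differences ran from -0.0975 to 0.129 for osimertinib minus control (no call in any, sign changed in 4), 1.35 to 1.87, 0.42 to 0.58, 0.38 to 0.61 and -1.36 to -0.84 in the other 4 comparisons. Counting of the pathway genes under alternatives was chosen after seeing the data. The causes of these changes were not tested. No paired analysis was possible because the groups share no replicate numbers in the labels: the title numbers differ, and the numbers used here follow accession order.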
